A study of Mus musculus with 16 samples.

Results

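Cyp4f18 and 7 genes of leukotriene synthesis and sensing were followed in regulatory T cells (Treg) and conventional T cells (Tconv) sorted from mouse visceral fat. The 8 genes were found by symbol among the 19540 genes of the deposited table. They were Alox5, Alox5ap, Lta4h and Ltc4s for synthesis, Ltb4r1, Cysltr1 and Cysltr2 for sensing, and Cyp4f18 for breakdown. Cyp4f18 was chosen by its values in these same libraries, as the gene with the largest log2 difference between Treg and Tconv, so its Treg and Tconv levels are given as a description without a test. The other 7 were added for their place in the pathway.

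The study asked what loss of Hpgd, which encodes the enzyme that inactivates prostaglandin E2, does to fat Treg and to the Tconv beside them. RNA was sequenced from 4 Treg KO, 3 Treg WT, 5 Tconv KO and 4 Tconv WT libraries of C57BL/6JRcc mice aged 12 weeks. KO mice carry floxed Hpgd alleles and a YFP-Cre fusion expressed from Foxp3, the gene that defines Treg, so only Foxp3-expressing cells lose Hpgd and the Tconv KO libraries come from the non-targeted cells of such animals. All 16 samples carry 1 wording for the mouse line, which leaves the titles as the source of genotype and does not say whether WT mice carry the Cre. The series counts 5 deleted and 4 WT animals but does not tie libraries to them, so p-values measure the spread between libraries. Libraries held 3390220 to 9262221 reads, except Tconv KO 3 with 56653889. Values are read counts divided by a library size factor, plus 1, which puts a gene without reads at 1.

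Leukotrienes are lipid mediators made from arachidonic acid. The 5-lipoxygenase encoded by Alox5, helped by the membrane protein encoded by Alox5ap, makes leukotriene A4. Lta4h turns it into leukotriene B4, a chemoattractant, and Ltc4s joins it to glutathione to start the cysteinyl leukotrienes. Ltb4r1 encodes the high-affinity receptor for leukotriene B4, and Cysltr1 and Cysltr2 encode receptors for the cysteinyl leukotrienes. The mouse Cyp4f18 product, best known from neutrophils, is a cytochrome P450 that oxidises leukotriene B4 near the end of its carbon chain, a step in its inactivation.

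Hpgd itself stood at 3.41, 2.54, 2.42 and 1 in Treg KO 1 to 4, against 73.1, 56.0 and 4.31 in Treg WT 1 to 3. The library labelled Treg WT 3 thus held 3 Hpgd reads, close to the KO libraries, and each contrast between Treg KO and Treg WT rests on that label. Hpgd had reads in 1 Tconv library, Tconv KO 3, at 6.20. Foxp3 ranged from 279 to 616 over the 7 Treg libraries and from 1 to 39.3 over the 9 Tconv libraries. The T cell genes Cd3e, at 1401 to 2088 in Treg and 1674 to 2497 in Tconv, and Cd4, at 3859 to 6801 in Treg and 4854 to 7949 in Tconv, were high in all libraries. The cytotoxic gene Nkg7 stood at 175 to 2984 in Treg and at 6754 to 16489 in Tconv. In 3 Tconv libraries (Tconv KO 3, Tconv WT 1 and Tconv WT 3), which stood apart in earlier results of these data, genes of fat Treg and of type 2 cells were high. Tconv WT 1 also held neutrophil RNA, with S100a8 at 10195 and S100a9 at 4204. Its summed eosinophil markers (324) and macrophage and monocyte markers (1094, with Lyz2 at 833) were also the highest of all libraries.

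Cyp4f18 (ENSMUSG00000003484.4) lies on chromosome 8 at 71988482 to 72009626 on the minus strand of mm10, with 13 exon blocks and 1855 exonic bases in GENCODE M21. Ltb4r1 (ENSMUSG00000046908.5), on chromosome 14, spans 55765962 to 55768494 of the plus strand, with 1394 exonic bases. These are the members with the highest levels in Treg, and their promoters are shown so that the starts of both genes can be compared. Each run is the 250 bases before the RefSeq start on GRCm38.p6, at chr8:72009627-72009876 on the minus strand for Cyp4f18 and chr14:55765712-55765961 on the plus strand for Ltb4r1. Capitals mark the motif matches described next.
Cyp4f18: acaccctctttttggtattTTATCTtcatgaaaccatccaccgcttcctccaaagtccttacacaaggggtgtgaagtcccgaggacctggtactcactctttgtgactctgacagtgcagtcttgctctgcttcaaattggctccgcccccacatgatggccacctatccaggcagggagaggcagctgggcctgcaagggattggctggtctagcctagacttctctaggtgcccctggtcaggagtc
Ltb4r1: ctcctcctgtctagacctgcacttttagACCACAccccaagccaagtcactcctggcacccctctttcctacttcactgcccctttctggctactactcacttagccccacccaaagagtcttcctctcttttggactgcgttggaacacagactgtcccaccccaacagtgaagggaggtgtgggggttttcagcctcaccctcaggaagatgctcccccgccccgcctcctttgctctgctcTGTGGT

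The promoters of the 6 members listed in the RefSeq table were searched on both strands for 7 motifs, and matches of different motifs did not overlap. The forkhead motif was searched as TGTTTAC, which 3.17% of the 32851 mouse promoters of this length hold. The GATA motif was searched as AGATAA, held by 9.99% of these promoters. The nuclear receptor motif was searched as AGGTCA, held by 14% of them. The AP-1 motif was searched as TGANTCA, held by 6.75%, and the ETS motif as CCGGAA, held by 12% of all these promoters. The RUNX motif was searched as TGTGGT, held by 14%, and the TATA motif as TATAAA, held by 12.4% of all these promoters. Cyp4f18 held 1 GATA match, at position −231 from the start, on the strand opposite to the printed one. Ltb4r1 held 2 RUNX matches, at position −222 on the minus strand and at position −6 on the plus strand, and Ltc4s held 1 RUNX match. Alox5, Lta4h and Cysltr2 held no match. A match, or its lack, is only a description of these letters.

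Cyp4f18 was abundant in every Treg library and nearly unread in Tconv. Its values were 14107, 2425, 6856 and 10743 in Treg KO 1 to 4, and 6762, 2860 and 6687 in Treg WT 1 to 3. In Tconv it stood at 1, 8.79, 4.42, 23.3 and 1 in Tconv KO 1 to 5, and at 3.07, 1, 1 and 1 in Tconv WT 1 to 4. The groups were thus far apart: the lowest Treg KO library exceeded the highest Tconv KO library 104-fold, and the lowest Treg WT library exceeded the highest Tconv WT library 932-fold. The 5 Tconv KO libraries held 65 Cyp4f18 reads in all, and the 4 Tconv WT libraries held 2, both of them in Tconv WT 1. Mean levels were 1271-fold higher in Treg KO than in Tconv KO, and at least 1395-fold higher in Treg WT than in Tconv WT when each Tconv WT library is set at a floor of 3 reads. The KO fold rests much on Tconv KO 4, the highest Tconv library, and was 3043 without it, against 995 to 1575 with any other KO library left out.

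On the log2 scale the Treg minus Tconv difference of Cyp4f18 was 10.32 in KO and 11.05 in WT, the highest of the 14319 genes tested in both genotypes. The next gene was Slco2b1, an organic anion transporter, at 9.54 in KO and 8.09 in WT. Per kilobase of exon, Cyp4f18 averaged 4599 ± 2715 normalised reads in Treg KO (SD, n = 4) and 2930 ± 1203 in Treg WT (SD, n = 3). That placed it at rank 84 in Treg KO and rank 119 in Treg WT among the 18235 genes with a length. In bulk RNA, fewer cells that express a gene and less RNA per cell cannot be told apart.

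**Figure D1:**
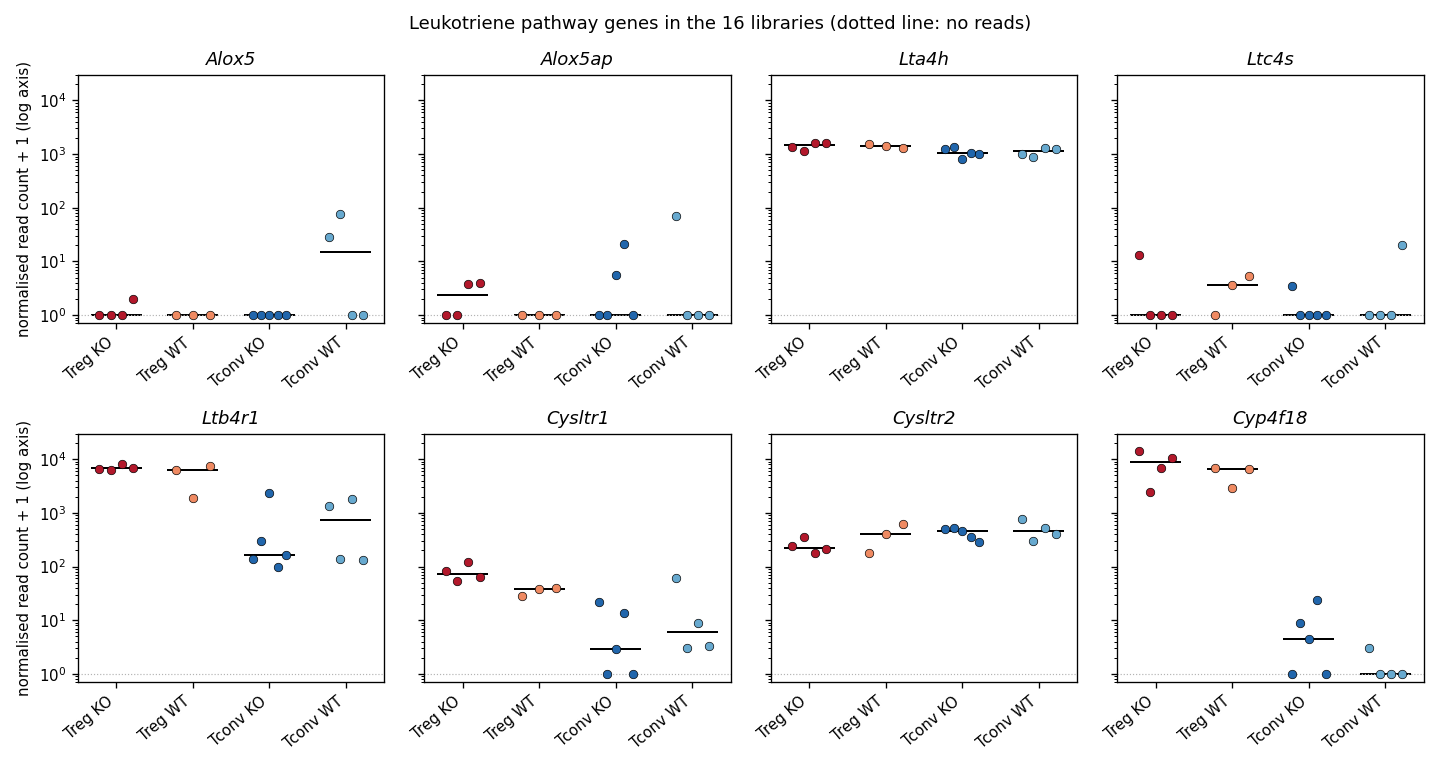
Normalised read count plus 1 (log axis) of the 8 genes in each of the 16 libraries, with a bar at the group median and a dotted line at 1, where a gene has no reads. Cyp4f18 lies between 2425 and 14107 in Treg and at or below 23.3 in Tconv, Ltb4r1 is high in Treg and in 3 Tconv libraries, and Alox5, Alox5ap and Ltc4s have no reads in most libraries.

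The Treg libraries differed in Cyp4f18 more than in most abundant genes. In Treg KO the highest library exceeded the lowest 5.82-fold, and the SD of log2 values was 1.12. Of the 1502 genes with a Treg KO mean of 1000 or more, 0.399% had a larger SD, and their median SD was 0.28. In Treg WT the range was 2.36-fold and the SD 0.71, and 8.39% of 1514 such genes varied more. Ltb4r1 varied little in Treg KO, with an SD of 0.15 and a 1.27-fold range, so that Treg KO 2 had the lowest Cyp4f18 of all Treg libraries (2425) with an Ltb4r1 level of 6339. In Treg WT 2 both were low, with Cyp4f18 at 2860 and Ltb4r1 at 1903. Over the Treg WT libraries Ltb4r1 varied more than Cyp4f18, with an SD of 1.07 and a 3.91-fold range. Of the 1514 genes, 2.71% had a larger SD. The interleukin 33 receptor gene Il1rl1 was also low in Treg WT 2, at 1725, while the other Treg libraries held 10742 to 14889.

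Since Cyp4f18 is known from neutrophils, the 13 neutrophil markers were summed in each library. The sums ranged from 534 to 2962 in Treg KO, 1780 to 2492 in Treg WT, 352 to 942 in Tconv KO and 894 to 18636 in Tconv WT. Mmp9, a matrix protease, made up most of the Treg sums, at 399 to 2868. Of the 13 markers, Ly6g, Elane, Ngp, Camp, Ltf and Mmp8 had no reads in any Treg KO library, and Retnlg, Elane and Mmp8 had none in Treg WT. S100a9 had reads in each Treg KO library, at 7.03, 11.8, 8.08 and 9.76 in Treg KO 1 to 4. S100a8 stood at 2.21, 13.3, 1 and 1 there. Treg WT 1 held Ly6g at 22.9, Ngp at 8.30, S100a8 at 37.5 and S100a9 at 24.7, while all 4 had no reads in Treg WT 2 and Treg WT 3, where Cyp4f18 stood at 2860 and 6687. In Tconv WT 1, where S100a8 stood at 10195, Cyp4f18 had 2 reads.

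Exons of Cyp4f18 overlap those of Zfp961, a zinc finger gene on the opposite strand, over 181 bases (9.76% of its exonic bases). The libraries do not mark strand. Zfp961 was low in Treg, at 63.7, 64.0, 12.3 and 48.7 in Treg KO and 141, 85.6 and 5.41 in Treg WT. Its Tconv range of 32.5 to 135 lay within the Treg range of 5.41 to 141, while Cyp4f18 was near 0 in Tconv.

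The Cyp4f paralogs are cytochrome P450 genes of the same family, and reads from shared stretches may be assigned to either gene. Cyp4f18 shares 32 of its 1850 distinct 31-base words (1.73%) with Cyp4f17, in 3 coding runs, of which the longest has 56 bases and is given here because a read from it belongs equally to both genes.
Cyp4f18 and Cyp4f17: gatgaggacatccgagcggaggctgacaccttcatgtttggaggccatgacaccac
Cyp4f17 reads equalled 1.91%, 3.23%, 2.25% and 1.94% of Cyp4f18 reads in Treg KO 1 to 4, and 2.27%, 2.32% and 2.24% in Treg WT 1 to 3. This percentage varied 1.70-fold over the 7 Treg libraries, while Cyp4f18 reads, which also follow library depth, varied 7.42-fold, from 1578 to 11702. Normalised Cyp4f18 values ran from 2425 to 14107. The corresponding percentages varied 3.42-fold for Cyp4f16, 4.67-fold for Cyp4f14 and 14.4-fold for Cyp4f13. Whether Cyp4f17 values in Treg hold reads of Cyp4f18 was not tested.

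**Figure D2:**
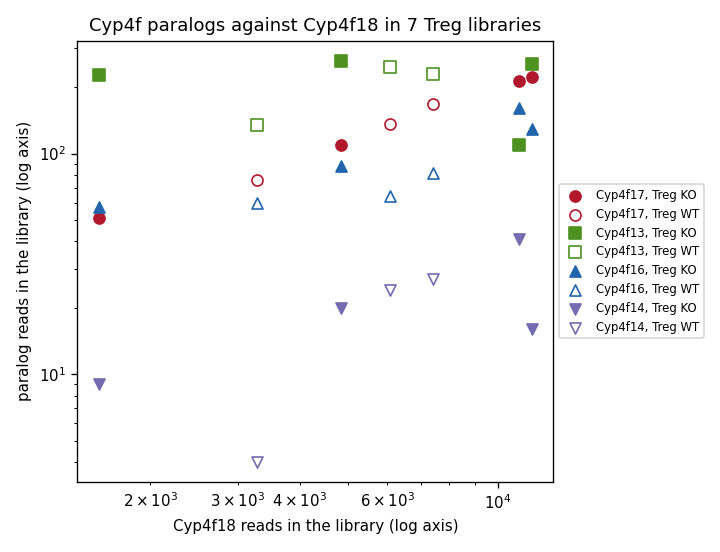
Reads of Cyp4f17, Cyp4f13, Cyp4f16 and Cyp4f14 (vertical, log axis) against reads of Cyp4f18 (horizontal, log axis) in the 4 Treg KO libraries (filled) and 3 Treg WT libraries (open). Cyp4f17 keeps to 1.91% to 3.23% of Cyp4f18 along the whole range, and Cyp4f13 does not follow it.

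Likeness to Cyp4f18 was ranked by a root mean square distance between centred log2 values over the 16 libraries. Genes named only by an identifier and antigen receptor segments were left out of the ranking. Among the rest, the 5 genes most like Cyp4f18 were Slco2b1 (1.56), Ky (2.13), Ccr1 (2.16), Wipf3 (2.25) and Jup (2.40). Cyp4f18 was chosen for its large difference between Treg and Tconv. This distance therefore favours other genes with a large difference, and the ranking is only a description. Slco2b1 stood at 1514, 738, 2201 and 1997 in Treg KO and 1316, 314 and 1508 in Treg WT. In Tconv it had reads in Tconv WT 2 alone, at 11.1. Ky ranged from 209 to 482 in Treg and Ccr1, a chemokine receptor gene, from 106 to 1646. Among Treg libraries, Slco2b1 and Cyp4f18 were both lowest in Treg KO 2 and Treg WT 2, while Slco2b1 was highest in Treg KO 3 (2201) and Cyp4f18 in Treg KO 1 (14107).

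Of the synthesis members, Alox5, Alox5ap and Ltc4s were hardly read. Alox5 had 1 read in the 4 Treg KO libraries and none in Treg WT or Tconv KO, and stood at 28.9, 76.1, 1 and 1 in Tconv WT 1 to 4. Alox5ap stood at 1, 1, 3.83 and 3.92 in Treg KO and had no reads in Treg WT. In Tconv KO it stood at 1, 1, 5.69, 20.9 and 1, and in Tconv WT at 70.3, 1, 1 and 1. Ltc4s stood at 13.1, 1, 1 and 1 in Treg KO and at 1, 3.62 and 5.41 in Treg WT. In Tconv KO it stood at 3.43, 1, 1, 1 and 1, and in Tconv WT at 1, 1, 1 and 20.1. Groups overlapped in all these cases.

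The value of 3 reads ran from 1.38 to 7.09 over the libraries, so for these 3 genes most libraries are at or below what this depth can show. In the 2-sided exact permutation tests of Alox5, Alox5ap and Ltc4s in 4 comparisons, the p-values ran from 0.333 to 1, and all 12 were 1 after Benjamini-Hochberg adjustment over the 12 tests. With 3 against 4 libraries such a test cannot go below 0.0571. The highest Alox5ap value was in Tconv WT 1, the library with neutrophil RNA and the highest eosinophil and macrophage marker sums. The part of such cells in it was not tested. The highest Alox5 value was in Tconv WT 2, where S100a8 stood at 31.4. Exons of Alox5ap and Ltc4s overlap antisense transcripts over 13.3% and 26.4% of their exonic bases, so their few reads are uncertain without strand.

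Lta4h was read evenly in all libraries. It stood at 1366, 1163, 1614 and 1586 in Treg KO and at 1534, 1438 and 1320 in Treg WT. Tconv KO libraries held 1229, 1379, 809, 1067 and 994, and Tconv WT libraries 1023, 870, 1278 and 1248. Treg WT libraries all lay above Tconv WT libraries, and the KO groups overlapped. The log2 difference between Treg and Tconv was 0.40 (SE 0.19, adjusted p = 0.258) in KO and 0.39 (SE 0.21, adjusted p = 0.393) in WT, neither of which passed an adjusted p of 0.05 in limma with Benjamini-Hochberg adjustment over 14319 genes. Adjusted p-values below are from this test.

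Ltb4r1 was the second member with a high level in Treg. Its values were 6612, 6339, 8054 and 6951 in Treg KO 1 to 4, and 138, 294, 2308, 99.9 and 164 in Tconv KO 1 to 5. They were 6306, 1903 and 7447 in Treg WT 1 to 3, and 1358, 139, 1796 and 135 in Tconv WT 1 to 4. Treg and Tconv did not overlap in either genotype, but in WT the lowest Treg library, at 1903, lay just above the highest Tconv library, at 1796. Per kilobase of exon, Ltb4r1 averaged 5013 ± 540 normalised reads in Treg KO (SD, n = 4) and 3743 ± 2100 in Treg WT (SD, n = 3), at ranks 74 and 91 of 18235.

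In KO, Ltb4r1 was higher in Treg than in Tconv by 4.66 on the log2 scale (SE 0.82, adjusted p = 0.00104). In WT it differed by 3.27 (SE 0.93, adjusted p = 0.0532) and did not pass, but it passed with log2(value + 9) (adjusted p = 0.0377) and with a filter at 50 (adjusted p = 0.0350). Of the 4 members tested between Treg and Tconv, those other than Cyp4f18, 2 rose in KO, where 6.81% of all genes passed, and 0 passed in WT, where 4.18% of all genes did. Groups did not overlap for 2 of the 4 in KO and 2 in WT, where those of 10.7% and 12.0% of all genes did not. At an unadjusted p under 0.05, all 4 passed in KO, where 18.7% of all genes did. Only Ltb4r1 of the 4 did so in WT (limma unadjusted p = 0.00227 over 16 libraries), where 16.3% of all genes did, and with limma's voom weights on the recovered reads 0 of 4 passed after adjustment in WT.

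Among Tconv, Ltb4r1 was high in the same 3 libraries as several genes of fat Treg and of activated or type 2 cells. In Tconv KO 3, Tconv WT 1 and Tconv WT 3, Ltb4r1 stood at 2308, 1358 and 1796, and in the other 6 Tconv libraries at 99.9 to 294. Il1rl1 stood at 2548, 1566 and 1746 in these 3 libraries, against at most 201 in the others. Pparg, a nuclear receptor of fat Treg, stood at 398, 316 and 485, against at most 36.3. The interleukin 2 receptor gene Il2ra stood at 1299, 588 and 729, against at most 86.2, and the cytokine gene Il5 at 940, 600 and 426, against at most 52.4. The summed type 2 innate lymphoid markers, mostly Rora (7388, 4534 and 7891), were 9534, 6032 and 9696 there. Those sums were at most 4813 in the other Tconv libraries and 2826 to 15666 in Treg. Cyp4f18 was not high there, at 4.42, 3.07 and 1, nor was Foxp3, at 1.89, 20.6 and 1. The part of the cells behind these genes in the Ltb4r1 values of Tconv was not tested. Without the 3 libraries, Ltb4r1 was higher in Treg by 5.43 in KO (adjusted p = 1.49e-07) and by 5.02 in WT (adjusted p = 1.84e-05), with 2 Tconv WT libraries left. Since Ltb4r1 is high in the libraries left out, these values are a description of the rest and not a separate test. Leaving out Tconv KO 3, Tconv WT 1, Tconv WT 3 or Treg WT 2 alone gave adjusted p-values in WT of 0.0122, 0.0330, 0.0195 and 0.0347, and the other 12 libraries, each left out in turn, gave none under 0.05. Without the library labelled Treg WT 3, the WT difference was 2.90 (adjusted p = 0.191).

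**Figure D3:**
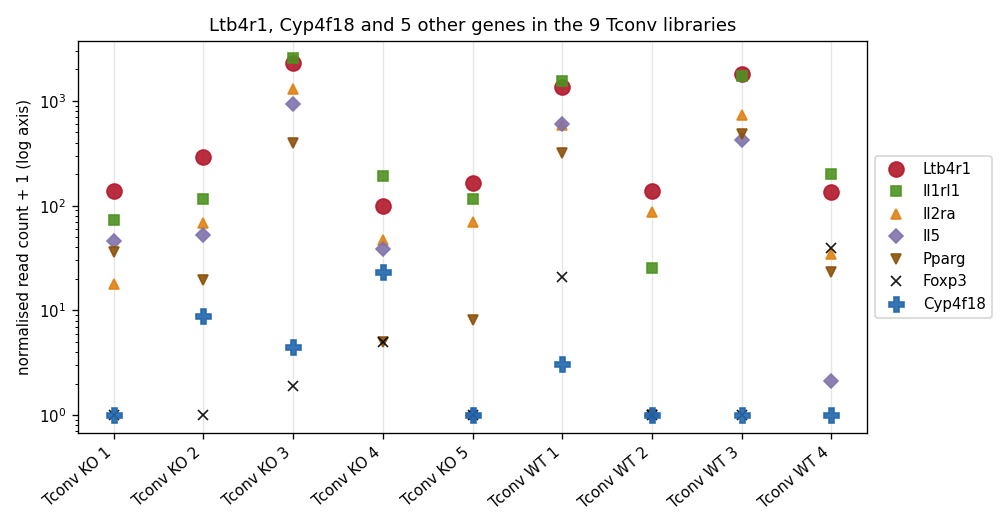
Normalised read count plus 1 (log axis) of Ltb4r1, Il1rl1, Il2ra, Il5, Pparg, Foxp3 and Cyp4f18 in the 5 Tconv KO and 4 Tconv WT libraries. Ltb4r1 exceeds 1000 in Tconv KO 3, Tconv WT 1 and Tconv WT 3, where Il1rl1, Il2ra, Il5 and Pparg are also high, while Cyp4f18 stays at or below 23.3 in each library.

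Cysltr1 was read at low levels, and more in Treg. Its values were 81.8, 53.2, 120 and 63.3 in Treg KO, and 21.7, 1, 2.90, 13.8 and 1 in Tconv KO. They were 28.4, 38.5 and 39.6 in Treg WT, and 59.9, 3.03, 9.05 and 3.25 in Tconv WT. The KO groups did not overlap, and in WT the Tconv WT 1 library lay above all Treg WT libraries. Cysltr1 was higher in Treg by 3.79 in KO (SE 0.90, adjusted p = 0.0121), and differed by 1.84 in WT (SE 1.03, adjusted p = 0.403). Without Tconv KO 3, Tconv WT 1 and Tconv WT 3 the WT difference was 3.13 (adjusted p = 0.143).

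Cysltr2 was read in all libraries without a difference that passed. Its values were 238, 359, 175 and 208 in Treg KO, and 508, 528, 462, 354 and 292 in Tconv KO. They were 179, 413 and 613 in Treg WT, and 762, 297, 512 and 398 in Tconv WT. Groups overlapped in both genotypes. The Treg minus Tconv log2 difference was −0.82 in KO (SE 0.35, adjusted p = 0.207) and −0.38 in WT (SE 0.40, adjusted p = 0.728). Cysltr2 exceeded Cysltr1 per kilobase of exon in each group, with 85.0 ± 27.9 against 15.3 ± 5.72 normalised reads in Treg KO (SD, n = 4) and 171 ± 69.6 against 3.46 ± 5.36 in Tconv WT (SD, n = 4).

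**Figure D4:**
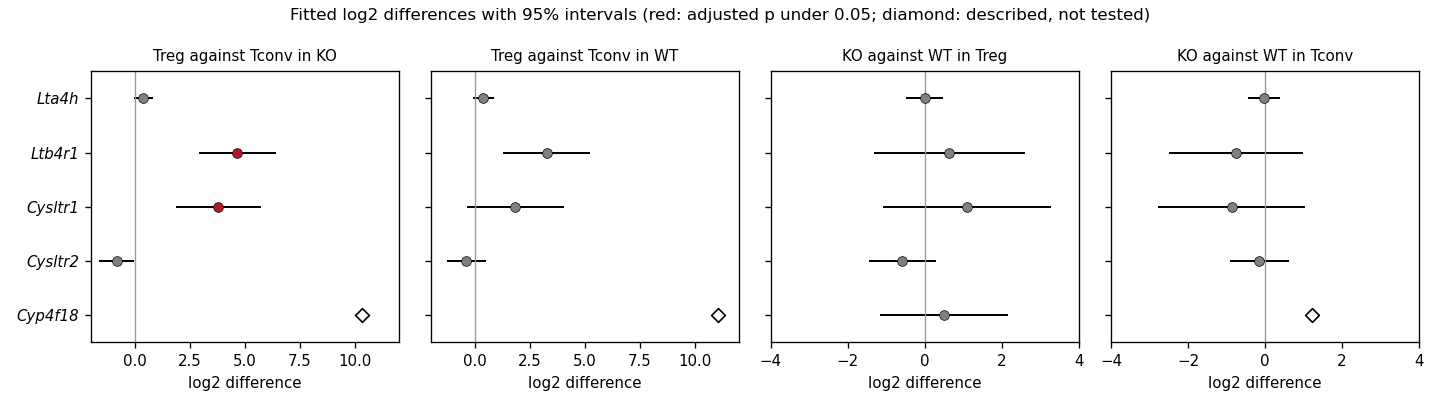
Log2 differences (horizontal) of 5 members in 4 comparisons, with 95% intervals from limma, where red marks an adjusted p under 0.05 and open diamonds mark the Cyp4f18 differences that are described without a test. Ltb4r1 (4.66) and Cysltr1 (3.79) pass between Treg and Tconv in KO, and the intervals between KO and WT include 0, for 5 members in Treg and 4 in Tconv.

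Deletion of Hpgd was not followed by a change in any member that passed. Between Treg KO and Treg WT, 0 of 5 members passed at an adjusted or an unadjusted p under 0.05, where 0.0210% of all genes passed after adjustment and 6.22% before it, and voom gave 0 as well. Cyp4f18 averaged 8533 ± 5036 in Treg KO (SD, n = 4) and 5436 ± 2231 in Treg WT (SD, n = 3), a log2 difference of 0.49 (95% interval −1.15 to 2.12, adjusted p = 0.965). Ltb4r1 averaged 6989 ± 753 in Treg KO and 5219 ± 2928 in Treg WT, a log2 difference of 0.64 (95% interval −1.30 to 2.58, adjusted p = 0.955). These intervals span more than a doubling in either direction, so differences of that size were not detectable with 4 and 3 libraries. Cysltr1 was the member whose groups did not overlap, at 53.2 to 120 in Treg KO and 28.4 to 39.6 in Treg WT (log2 difference 1.09, 95% interval −1.06 to 3.24, adjusted p = 0.916). Of all genes tested, 6.01% had Treg KO and Treg WT groups that did not overlap. Without the library labelled Treg WT 3, the differences between Treg KO and Treg WT were 0.69 for Cyp4f18, 1.01 for Ltb4r1, 1.17 for Cysltr1, −0.20 for Cysltr2 and −0.06 for Lta4h, with adjusted p-values from limma of at least 0.905.

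Cysltr2 averaged 245 ± 80.1 in Treg KO and 402 ± 217 in Treg WT (log2 difference −0.59, 95% interval −1.43 to 0.25, adjusted p = 0.848). Lta4h averaged 1432 ± 211 in Treg KO and 1430 ± 107 in Treg WT, and its interval of −0.45 to 0.44 on the log2 scale was the narrowest of the 5. In Tconv, 0 of 4 members other than Cyp4f18 passed between KO and WT at an adjusted or unadjusted p, where 0% of all genes passed after adjustment and 5.45% (781 genes) before it, and voom gave 0 after adjustment. Groups overlapped for all 4, and 1.67% of all genes had groups that did not. Cyp4f18 averaged 7.71 ± 9.30 in Tconv KO (SD, n = 5) and 1.52 ± 1.03 in Tconv WT (SD, n = 4), from 65 reads and 2 reads. No test is given for it, since it passed the filter on low values through Treg alone and 5 of the 9 Tconv libraries held none of its reads. Log2 differences in Tconv were −0.75 for Ltb4r1, −0.87 for Cysltr1, −0.15 for Cysltr2 and −0.02 for Lta4h, with adjusted p-values from 0.971 to 0.999.

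The deletion effect in Treg minus that in Tconv passed for 0 of 4 members other than Cyp4f18, with limma's adjusted p-values from 0.954 to 0.998, and for 0% of all genes, of which 5.22% (748 genes) had an unadjusted p under 0.05. It was 1.96 for Cysltr1 (SE 1.37), 1.39 for Ltb4r1 (SE 1.24) and −0.44 for Cysltr2 (SE 0.54). The interaction also compares the Treg against Tconv difference between genotypes, so the passing of Ltb4r1 and Cysltr1 in KO and not in WT is not shown to be a difference between KO and WT.

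The wider pathway was read from 5 lists: synthesis, export and peptide processing, breakdown, receptors, and other lipoxygenases with receptors of lipoxins and resolvins. They hold 54 genes, of which 49 are in the table and 31 passed the filter. Without Cyp4f18, 6 of 30 rose and 1 fell in Treg against Tconv in KO, where 4.16% and 2.65% of all genes did. In WT, 2 of 30 rose and 1 fell, where 2.20% and 1.98% of all genes did. The median log2 difference of the 30 was 0.61 in KO and 0.36 in WT, against 0.04 and −0.00 over all genes tested. The 6 were Ltb4r1, Cysltr1, Cotl1, Cyp4f14, Cyp4f17 and Alox8. Of these, Cyp4f14 passed the filter on low values through Treg libraries alone, so its place in the count rests on that filter.

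In the synthesis list, 1 of 7 tested genes rose in KO and none fell, where 4.16% and 2.65% of all genes did. Cotl1, an actin-binding protein that also binds 5-lipoxygenase, averaged 3470 ± 513 in Treg KO and 2178 ± 369 in Tconv KO (log2 difference 0.68, SE 0.18, adjusted p = 0.0250). That call was lost under 8 alternatives, with an adjusted p of 0.0848 with voom and 0.136 with quantile scaling, and of 0.0978, 0.0850, 0.0629 and 0.0744 without Treg KO 3, Treg KO 4, Tconv KO 1 and Tconv KO 5. In WT it averaged 2776 ± 543 in Treg and 2061 ± 442 in Tconv (0.43, adjusted p = 0.298). Mgst2, a glutathione transferase that can make leukotriene C4, averaged 237 ± 70.8 in Treg KO and 170 ± 59.0 in Tconv KO, and 391 ± 192 in Treg WT and 150 ± 91.2 in Tconv WT, with adjusted p-values of 0.625 and 0.108. Mgst1 had no reads in Treg, and averaged 14.5 ± 15.9 in Tconv KO and 13.7 ± 14.7 in Tconv WT. In the export and processing list, 0 of 6 tested genes passed in either genotype, where 6.81% of all genes did in KO and 4.18% in WT, Abcc1, an exporter of leukotriene C4, among them (676 ± 199 in Treg KO, 401 ± 88.8 in Tconv KO, adjusted p = 0.372).

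In the breakdown list, Cyp4f17 rose in both genotypes and Cyp4f14 in KO. Cyp4f18 shares 32 words of 31 bases with Cyp4f17, 25 with Cyp4f16, 23 with Cyp4f13 and 18 with Cyp4f14. Whether reads of Cyp4f18 entered the values of any of these paralogs was not tested. Cyp4f17 averaged 178 ± 80.9 in Treg KO and 16.5 ± 5.95 in Tconv KO (3.29, SE 0.57, adjusted p = 0.00103). It averaged 124 ± 49.3 in Treg WT and 25.0 ± 15.6 in Tconv WT (2.33, SE 0.65, adjusted p = 0.0495). Cyp4f14 averaged 26.3 ± 11.4 in Treg KO and 4.66 ± 3.35 in Tconv KO (2.47, SE 0.73, adjusted p = 0.0482). No Tconv library held Cyp4f14 above 7.46, so it passed the filter on low values through Treg alone, where it was high. Its p-value is therefore only a description. The call of Cyp4f17 in WT was lost under 20 alternatives (adjusted p up to 0.186) and that of Cyp4f14 under 21 (adjusted p up to 0.153). Cyp4f13, which had 285 ± 121 in Treg KO and 208 ± 85.1 in Tconv KO, did not pass (0.41, adjusted p = 0.726).

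In the receptor list, Ltb4r2, the low-affinity leukotriene B4 receptor gene that neighbours Ltb4r1 on chromosome 14, was rare. It averaged 27.1 ± 19.1 in Treg KO and 8.72 ± 10.4 in Tconv KO (1.69, adjusted p = 0.270), and 8.10 ± 5.34 in Treg WT and 4.88 ± 4.38 in Tconv WT (0.77, adjusted p = 0.762). Outside the leukotriene genes, Alox8 and Gpr18 passed in both genotypes. Alox8, a mouse lipoxygenase that oxidises arachidonic acid at another carbon, stood at 328, 714, 403 and 1022 in Treg KO and at 109, 28.3, 65.0, 74.4 and 19.7 in Tconv KO (3.46, SE 0.46, adjusted p = 6.77e-05). In WT it stood at 655, 917 and 664 in Treg and at 111, 153, 124 and 78.7 in Tconv (2.69, SE 0.53, adjusted p = 0.00522). The groups did not overlap in either genotype.

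Gpr18, which encodes a G protein-coupled receptor listed among the resolvin receptors, was lower in Treg. It stood at 34.8, 4.07, 43.5 and 19.5 in Treg KO and at 379, 292, 286, 751 and 310 in Tconv KO (−4.22, SE 0.68, adjusted p = 0.000457). In WT it stood at 16.5, 14.1 and 1 in Treg and at 205, 354, 218 and 351 in Tconv (−5.08, SE 0.78, adjusted p = 0.000558). All Treg libraries lay below all Tconv libraries. The 12/15-lipoxygenase gene Alox15 had no reads in Treg or Tconv KO, and 31 reads in Tconv WT. Of these, 30 were in Tconv WT 1, the library with neutrophil RNA and the highest eosinophil and macrophage marker sums. The part of such cells in these reads was not tested.

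**Figure D5:**
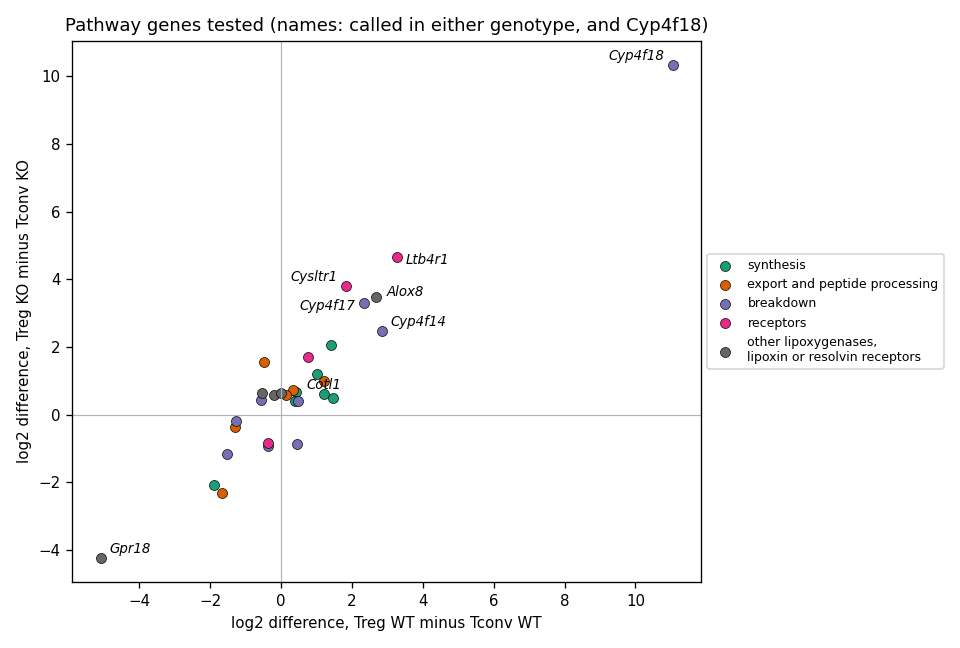
Log2 difference between Treg and Tconv in KO (vertical) against that in WT (horizontal) for the 31 pathway genes tested, coloured by list, with names for the genes that passed in either genotype and for Cyp4f18. Cyp4f18 stands apart at 11.05 and 10.32, Ltb4r1, Cysltr1, Alox8, Cyp4f17 and Cyp4f14 are above 0 in both genotypes, and Gpr18 is lowest, at −5.08 and −4.22.

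With Hpgd deletion, 0 of the 31 pathway genes passed in Treg and 0 in Tconv, where 0.0210% and 0% of all genes did. The 31 include Cyp4f18, whose few reads in Tconv are only described, so its place in the Tconv counts is no test of it. In Treg, 25 of 31 log2 differences were above 0, with a median of 0.49, against 0.08 over all genes tested. Treg KO libraries also held reads of more genes (15135 to 16041) than Treg WT libraries (14216 to 14874), whose part in this was not tested. The smallest unadjusted p in Treg belonged to Dpep2, a dipeptidase that turns leukotriene D4 into leukotriene E4. It averaged 52.3 ± 21.3 in Treg KO (SD, n = 4) and 22.9 ± 22 in Treg WT (SD, n = 3), a log2 difference of 1.49 (SE 0.83, limma adjusted p = 0.840). Gpr18 followed at 1.32 (SE 0.78, adjusted p = 0.840). Without the library labelled Treg WT 3, Dpep2 differed by 0.96 (adjusted p = 0.892) and Gpr18 by 0.31 (adjusted p = 0.966). In Tconv, 18 of 31 were above 0, with a median of 0.09 against 0.02 over all genes. The smallest p belonged to Alox8, at 59.3 ± 36.4 in Tconv KO and 117 ± 30.9 in Tconv WT (−1.18, SE 0.46, adjusted p = 0.858), and to Ptgr1, which encodes a reductase of leukotriene B4 and prostaglandins (2.03, SE 1.09, adjusted p = 0.931).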

How the data were processed

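The authors' deposited table is a signal for 19540 genes in 16 libraries. Its steps show that each value is a read count over the library's size factor with 1 added. Per the labels' protocols, 10 ng of RNA from sorted cells went through SMART-seq2, which does not mark strand. Tools in the submitters' processing notes, listed without roles, are kallisto 0.44, DESeq2, CASAVA 1.8, R 3.3.1 and Partek 6.6, with the build mm10. The annotation used for counting is not given in the sources used here. From these steps the size of 1 read was found for every library, and 100% of 211037 low values came out whole within 0.1 of a read. The value of 3 reads served as a floor and covers counting error only.

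The 14319 genes that reached 10 in 3 or more libraries were fitted on log2(value + 1), a scale that understates changes of low genes, in 1 limma 3.58.1 model with a mean-variance trend (R 4.3.3) on all 16 libraries. Tests were 2-sided with Benjamini-Hochberg adjustment over all genes of a comparison, and passed at an adjusted p under 0.05. The 5 comparisons were Treg against Tconv in KO and in WT, KO against WT in Treg and in Tconv, and the difference of these effects. Members under the filter got exact permutation tests. The members, gene lists and doubted libraries were chosen with earlier results of these data known. Named genes were the members, Hpgd, Foxp3, pathway genes that passed (or the 2 with the smallest p), the 5 genes nearest to Cyp4f18, overlapping genes and up to 3 genes of each marker list. The 5 nearest were taken after identifier-only genes and antigen receptor segments were left out. Genes of the Cyp4f family, Il5, and single values set beside a result were named after their values were seen. Exons, lengths and shared words of 31 bases came from GENCODE M21 (mm10), where 18235 symbols (93.3%) were found once, and promoters from RefSeq (GRCm38.p6), which held 6 of the 8 members.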

Additional observations from a re-analysis of the deposited data

Results flagged for a closer look

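In 6 of the 24 groups of 4 or 5 libraries checked, 1 library of a member stood far from the others. For values that vary freely chance flags about 1 group in 20, but in these groups the other libraries were all at 1, with no reads, so that any read sets 1 library apart and that rate does not apply. Cyp4f18 stood at 3.07 in Tconv WT 1, from 2 reads, and at 1 in the other Tconv WT libraries. Alox5 stood at 1.97 in Treg KO 4, from 1 read, and Alox5ap at 70.3 in Tconv WT 1, from 67 reads. Ltc4s stood at 13.1 in Treg KO 1, from 10 reads, at 3.43 in Tconv KO 1, from 2 reads, and at 20.1 in Tconv WT 4, from 17 reads. Tconv WT 1 is the library with S100a8 at 10195 and the highest eosinophil and macrophage marker sums. The part of such cells in its Alox5ap and Cyp4f18 reads was not tested.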

How the results depend on the processing

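The replicate numbers were not taken to pair libraries, since the deviations of same-numbered libraries correlated at −0.04 to 0.08. In WT, Treg against Tconv, the count of members that passed was 0, and 1 (Ltb4r1) with log2(value + 9) (adjusted p = 0.0377), a filter at 50 (0.0350), a replicate block (0.0302), a replicate block within genotype (0.0365) and without the 3 Tconv libraries of high Il1rl1, which are Tconv KO 3, Tconv WT 1 and Tconv WT 3 (1.84e-05). Leaving out single libraries gave 0 to 1, and 2 to 5 for pathway genes, of which 3 passed (5 without Treg WT 2). In KO, with the replicate block within genotype, 1 member passed in place of 2 (Cysltr1 at 0.0511) and 4 pathway genes in place of 7. The replicate block changed no other count of members or pathway genes by over 1.5 times. With log2(value + 9) the Cyp4f18 difference was 8.92 in WT and 8.88 in KO, since that offset is larger than most Tconv values, and 9.96 to 11.5 with libraries left out. Pearson correlation in place of distance kept 3 of the 5 genes nearest to Cyp4f18.

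Signs turned only among differences that did not pass. Cysltr2 in WT was 0.051 without the 3 Tconv libraries and −0.77 to 0.12 with 1 library left out. For KO against WT, Lta4h in Treg was 0.0041 with quantile scaling and −0.070 to 0.088 with 1 left out. Lta4h in Tconv was 0.012 with quantile scaling, 0.011 with the replicate block, 0.15 without the 3 libraries and −0.13 to 0.085 with 1 left out. In Tconv, Ltb4r1 was 0.071 with voom and 0.23 without the 3 libraries, Cysltr1 0.55 without them, and Cysltr2 0.24 without them and −0.36 to 0.090 with 1 left out. The cause of these changes was not tested.

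Calls of single genes were lost for Cyp4f17 in WT under 20 alternatives (0.0538 to 0.186), Cyp4f14 in KO under 21 (0.0512 to 0.153) and Cotl1 in KO under 8 (0.0548 to 0.136). The calls of Ltb4r1 in KO, and of Alox8 and Gpr18 in both genotypes, held in all 26 settings run. Over all genes, 599 passed in WT between Treg and Tconv, against 290 with voom, 341 with only the groups compared and 338 without Treg WT 3. Between Treg KO and Treg WT 3 passed, against 0 with voom, the replicate block, only the groups compared or without Treg WT 3, 1 with a filter at 50, and 17 without Treg WT 1. The planned count tests, edgeR and DESeq2, were not run, since the table holds no deposited counts and the recovered reads were not accepted as input for them. Depth limits what can be said of Alox5, Alox5ap, Ltc4s and of Cyp4f18 in Tconv.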
